A study of Mus musculus with 8 samples.

Results

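The transcript levels of the glucocorticoid receptor gene *Nr3c1* and of 9 genes that glucocorticoids are known to induce were examined in mouse skeletal muscle with and without LSD1 in its myofibers. The 9 targets were *Fkbp5*, *Tsc22d3*, *Klf15*, *Ddit4*, *Sgk1*, *Zbtb16*, *Mt1*, *Mt2* and *Cebpd*. The members were chosen by gene symbol, and all 10 were found among the 27041 rows of the count table. None of the 10 differed between Ctrl and LSD1skm-/- muscle beyond the spread between libraries, whereas most of the targets were high in the same libraries and low in the same libraries, whatever the label.

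The glucocorticoid receptor (GR) is a nuclear receptor that chaperones hold in the cytoplasm until a glucocorticoid, such as corticosterone in the mouse, binds it. The receptor then enters the nucleus, binds glucocorticoid response elements and raises the transcription of genes that restrain its own signaling, dampen inflammation and shift muscle toward protein breakdown and fuel release. LSD1, encoded by *Kdm1a*, is a histone demethylase that can act with nuclear receptors, and the comparison asks whether its loss in myofibers changes these transcripts.

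All libraries came from 9-week-old male C57BL/6J mice that carry the LSD1 L2/L2 floxed alleles, in which the first exon of *Kdm1a* is flanked by LoxP sites. Ctrl mice have the floxed alleles without Cre, and LSD1skm-/- mice also carry HSA-Cre, which is active in myofibers, so that other cells of the muscle keep the gene. The labels give skeletal muscle, and the results of the study name gastrocnemius for its RNA-seq. Of the 8 samples in the labels, 6 were analysed, Ctrl replicates 1 to 4 and LSD1skm-/- replicates 1 and 2, and LSD1skm-/- replicates 3 and 4 were not analysed here. The labels list no treatment. In bulk muscle, fewer cells of a type and less RNA per cell cannot be told apart, and the p-values measure only the spread between these samples.

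The 4 Ctrl libraries held 32616912 to 41278769 counts each, and the 2 LSD1skm-/- libraries held 30654828 and 37788092. The 10 members had between 369 and 19042 counts per library, for which the counting error is between 5.21% and 0.725% of the value. In CPM (counts scaled to the TMM-normalized library size), *Kdm1a* was at 22.9, 21.96 and 28.1 in Ctrl replicates 1 to 3 and at 2.96 and 3.48 CPM in the LSD1skm-/- libraries. The library labelled Ctrl replicate 4 had 3.66 CPM, which goes against its label, and the comparisons are therefore given with and without it. The myofiber markers summed to between 198700 and 238300 CPM in every library. Markers of fibroblasts summed to between 477 and 521 CPM in Ctrl replicates 1 to 3, to 749 CPM in the library labelled Ctrl replicate 4, and to 659 and 782 CPM in the LSD1skm-/- libraries. Those of adipocytes summed to between 587 and 889 CPM, while the median log2 fold change over the 9 tested was -3.28 with all libraries and -2.97 without the library labelled Ctrl replicate 4. As described below, the tested adipocyte markers were low in Ctrl replicate 3 too.

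**Figure D1:**
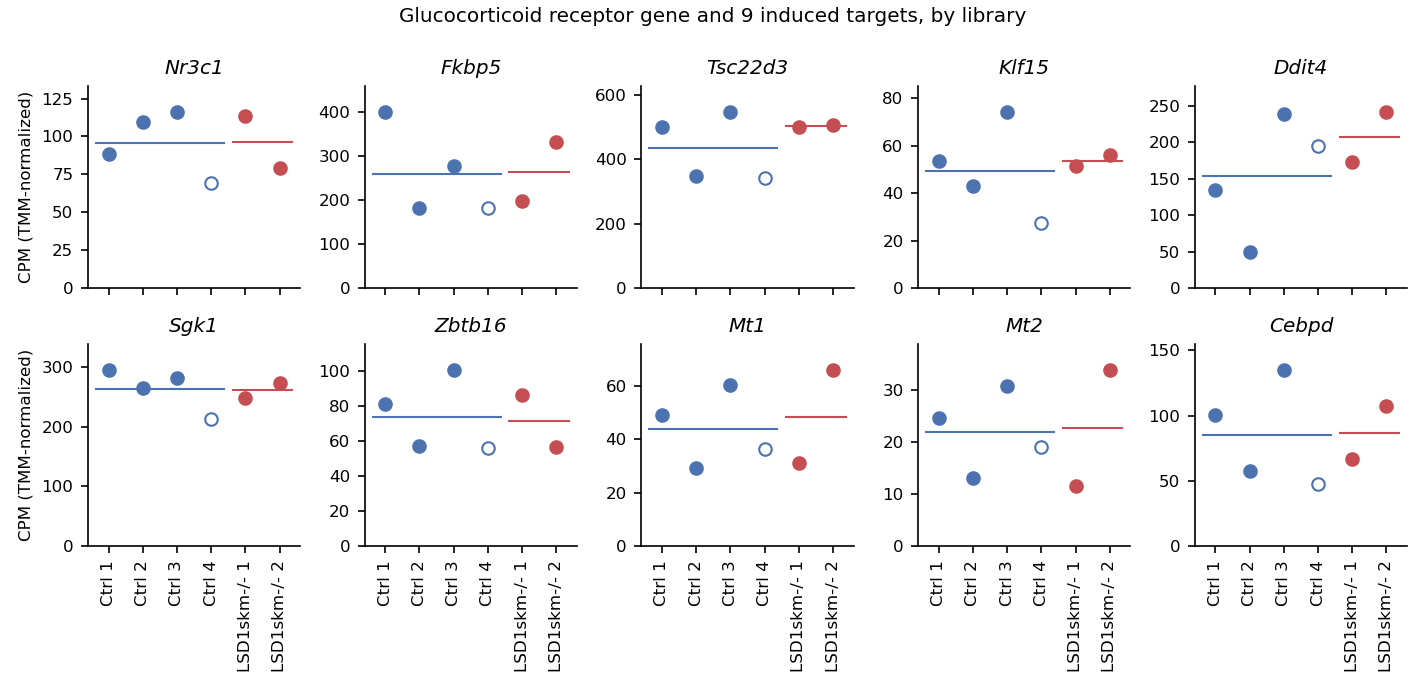
TMM-normalized CPM of *Nr3c1* and the 9 targets (vertical axes, each from 0) in the 4 Ctrl libraries (blue) and the 2 LSD1skm-/- libraries (red), with a line at each group's mean. The open circle is the library labelled Ctrl replicate 4. The ranges of the groups overlap in each of the 10 panels.

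*Nr3c1* did not separate the groups. Its gene lies on chromosome 18 of GRCm38, from 39410545 to 39519421, on the minus strand. It was at 88.8, 109.5 and 116 CPM in Ctrl replicates 1 to 3, at 69.5 CPM in the library labelled Ctrl replicate 4, and at 113 and 79.1 CPM in the LSD1skm-/- libraries. The lowest value thus belonged to a library with the Ctrl label, and the LSD1skm-/- libraries fell on either side of Ctrl replicate 1. The mean of the 4 Ctrl libraries was 95.9 ± 21.1 CPM (SD, n = 4), and that of the LSD1skm-/- libraries was 96.3 ± 24.3 CPM (SD, n = 2). The log2 fold change, LSD1skm-/- minus Ctrl here and throughout, was 0.01 (SE 0.23, 95% interval -0.53 to 0.54), with an edgeR p, adjusted over all genes tested, of 0.994. It was -0.12 without the library labelled Ctrl replicate 4 (SE 0.18, 95% interval -0.55 to 0.31, edgeR adjusted p = 0.768).

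At the thresholds of the study, an unadjusted p under 0.05 with a fold change above 1.3 or below 0.77, edgeR called 0 of the 10 members. Of all 11364 genes tested, 6.31% were called. Without the library labelled Ctrl replicate 4 the call was made for 0 of the 10 members and for 15% of 11200 genes. At an adjusted p under 0.05 the members numbered 0 in either comparison, beside 0% and 5.27% of all genes. An unadjusted p under 0.05 was also reached by 0 of the 10 in either comparison, by edgeR and by DESeq2 alike. The libraries of the groups did not overlap for 17.8% of all genes with all 6 libraries and for 37.6% without the library labelled Ctrl replicate 4, but they overlapped for each of the 10 members in both. The median log2 fold change of the 9 targets was 0.05 with all 6 libraries and -0.08 without the library labelled Ctrl replicate 4, and the median over all genes was -0.01 and -0.00.

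**Figure D2:**
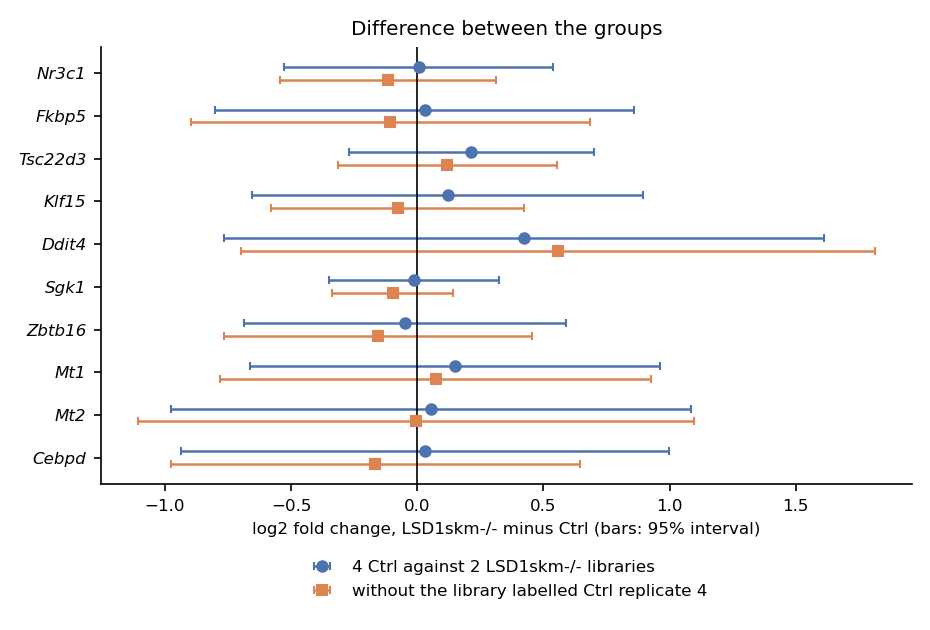
Log2 fold change of each member, LSD1skm-/- minus Ctrl (horizontal axis), from edgeR's fit to all 6 libraries (circles) and without the library labelled Ctrl replicate 4 (squares), with 95% intervals. Every interval includes 0. The narrowest are those of *Sgk1* and the widest those of *Ddit4*.

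The width of the intervals sets what could be seen. For *Sgk1* the interval from -0.35 to 0.32 held the smallest range of changes, and for *Tsc22d3* it ran from -0.27 to 0.70. For *Ddit4* it ran from -0.76 to 1.61, so that neither a fall nor a rise of moderate size could be told from no change.

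*Fkbp5* and *Tsc22d3* act as brakes on the hormone. *Fkbp5* encodes a co-chaperone that lowers the affinity of the receptor for its ligand, and *Tsc22d3* encodes GILZ, which binds and restrains inflammatory transcription factors. *Fkbp5* (chromosome 17, 28399094 to 28517527, minus strand) was at 400.3, 182 and 277 CPM in Ctrl replicates 1 to 3, at 182 CPM in the library labelled Ctrl replicate 4, and at 197 and 334 CPM in the LSD1skm-/- libraries. Both LSD1skm-/- values lay within the range of Ctrl replicates 1 to 3. The log2 fold change was 0.03 (SE 0.36, edgeR adjusted p = 0.983), and -0.11 without the library labelled Ctrl replicate 4 (SE 0.34, edgeR adjusted p = 0.890).

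*Tsc22d3* (chromosome X, 140539528 to 140600659, minus strand) was at 499, 348 and 545 CPM in Ctrl replicates 1 to 3 and at 342 CPM in the library labelled Ctrl replicate 4. The LSD1skm-/- libraries were close to each other, at 500.1 and 506 CPM. The 6 values fell into separate clusters, with Ctrl replicate 2 and the library labelled Ctrl replicate 4 below the others. The log2 fold change was 0.21 (SE 0.21, edgeR adjusted p = 0.744) and 0.12 without the library labelled Ctrl replicate 4 (SE 0.19, edgeR adjusted p = 0.768).

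The transcription factors among the targets were *Klf15*, *Cebpd* and *Zbtb16*. KLF15 turns on enzymes that break down branched-chain amino acids in muscle, C/EBP delta is an early factor of adipocyte differentiation and of the acute phase response, and ZBTB16, also called PLZF, is a zinc finger repressor. *Klf15* (chromosome 6, 90462576 to 90475238, plus strand) was at 53.4, 43.1 and 74.1 CPM in Ctrl replicates 1 to 3, at 27.2 CPM in the library labelled Ctrl replicate 4, and at 51.4 and 56.2 CPM in the LSD1skm-/- libraries. *Cebpd* (chromosome 16, 15887286 to 15891031, plus strand) was at 100.7, 57.8 and 135 CPM, then at 47.3 CPM, and at 66.4 and 107.5 CPM in the same order. Ctrl replicate 3 was highest and the library labelled Ctrl replicate 4 lowest for both genes. *Zbtb16* (chromosome 9, 48654297 to 48836222, minus strand) was at 81.2, 57.2 and 100.6 CPM in Ctrl replicates 1 to 3, at 56.4 CPM in the library labelled Ctrl replicate 4, and at 86.2 and 56.6 CPM in the LSD1skm-/- libraries. Of its LSD1skm-/- libraries, replicate 1 was the higher, in the reverse of their order for *Klf15* and *Cebpd*.

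The log2 fold changes of these factors were 0.12 for *Klf15* (SE 0.33, edgeR adjusted p = 0.917), 0.03 for *Cebpd* (SE 0.42, edgeR adjusted p = 0.984) and -0.05 for *Zbtb16* (SE 0.27, edgeR adjusted p = 0.965). They were -0.08, -0.17 and -0.15 without the library labelled Ctrl replicate 4, with edgeR adjusted p-values of 0.873, 0.831 and 0.787. The sign of *Klf15* and *Cebpd* therefore changed with the library labelled Ctrl replicate 4. The library labelled Ctrl replicate 4 held 0.479 times the mean *Klf15* level of the other Ctrl libraries and 0.484 times their *Cebpd* level.

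*Ddit4* and *Sgk1* carry the hormone signal into growth control and ion transport. *Ddit4* encodes REDD1, an inhibitor of mTORC1, and *Sgk1* encodes a kinase related to AKT. *Ddit4* (chromosome 10, 59949669 to 59951834, minus strand) was at 134, 49.0 and 239 CPM in Ctrl replicates 1 to 3, at 194 CPM in the library labelled Ctrl replicate 4, and at 173 and 241 CPM in the LSD1skm-/- libraries. Ctrl replicate 2 stood below all others, and the highest library held 4.92 times its level, the widest span among the members. The log2 fold change was 0.42 (SE 0.51, edgeR adjusted p = 0.796), and 0.56 without the library labelled Ctrl replicate 4 (SE 0.54, edgeR adjusted p = 0.616).

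*Sgk1* (chromosome 10, 21882184 to 21999903, plus strand) was the steadiest member, at 295, 265 and 282 CPM in Ctrl replicates 1 to 3, at 214 CPM in the library labelled Ctrl replicate 4, and at 249 and 274 CPM in the LSD1skm-/- libraries. Its highest library held 1.38 times the level of its lowest. The log2 fold change was -0.01 (SE 0.14, edgeR adjusted p = 0.982), and -0.10 without the library labelled Ctrl replicate 4 (SE 0.10, edgeR adjusted p = 0.651).

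The start site windows of the members were read from RefSeq (GRCm38.p6, 250 bases before to 50 after each start), which held 14 windows for 7 of the 10 members, and *Zbtb16*, *Cebpd* and the receptor gene had no window in the table. Motifs were searched on both strands. The 6-base half-site of a glucocorticoid response element, AGAACA, was found in 4 of the 14 windows, 3 of *Sgk1* and 1 of *Tsc22d3*, and in 19% of all 32817 windows. The consensus element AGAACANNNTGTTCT, a half-site followed by its inverted repeat 3 bases on, occurred in 3 windows of the table (0.00914%), and a window of *Sgk1* was among them. That window is printed because it is the only searched member window with the whole element. The element is shown in capitals, and its first base lies at -189 from the annotated start:
*Sgk1* chr10:21993640-21993939, plus strand: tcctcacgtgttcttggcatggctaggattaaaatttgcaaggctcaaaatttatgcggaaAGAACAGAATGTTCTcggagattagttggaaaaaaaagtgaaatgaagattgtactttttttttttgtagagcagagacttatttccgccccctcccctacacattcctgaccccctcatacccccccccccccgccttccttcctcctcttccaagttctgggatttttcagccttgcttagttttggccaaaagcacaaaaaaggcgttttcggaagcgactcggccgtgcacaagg
A match describes letters and not a bound site. The table of counts does not tell which of the 6 *Sgk1* windows was in use, since reads were counted per gene. The NRF1 motif GCGCATGCGC was in 0 of the 14 windows and in 0.966% of all windows. The E-box CACGTG was in 3 of the 14, those of *Klf15*, *Fkbp5* and *Sgk1*, and in 7.15% of all windows.

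*Mt1* and *Mt2* encode metallothioneins, small proteins that bind zinc and copper, and are induced by metals as well as by glucocorticoids. *Mt1* (chromosome 8, 94179082 to 94180327, plus strand) was at 49.0, 29.4 and 60.3 CPM in Ctrl replicates 1 to 3, at 36.5 CPM in the library labelled Ctrl replicate 4, and at 31.3 and 65.9 CPM in the LSD1skm-/- libraries. *Mt2* (chromosome 8, 94172664 to 94173568, plus strand) was at 24.7, 13.2 and 30.8 CPM, then at 19.1 CPM, and at 11.6 and 33.9 CPM in the same order. The 2 LSD1skm-/- libraries lay far apart, and replicate 2 was the highest of all 6 libraries for both genes. It held 2.11 times the *Mt1* level and 2.91 times the *Mt2* level of LSD1skm-/- replicate 1. The log2 fold change was 0.15 for *Mt1* (SE 0.35, edgeR adjusted p = 0.896) and 0.05 for *Mt2* (SE 0.44, edgeR adjusted p = 0.974). Without the library labelled Ctrl replicate 4 these were 0.07 and -0.00 (edgeR adjusted p = 0.934 and 0.997).

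Of the 50-base stretches in the *Mt2* transcripts, 45.8% are shared with *Gm45774* on the opposite strand, and 13.7% of those of *Cebpd* are shared with *Spidr* on the opposite strand. The table held 2 to 18 counts per library for *Gm45774* and 37 to 48 for *Spidr*, far below the counts of *Mt2* and *Cebpd*. No strand setting for the counting is given in the sources used here.

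The core of the metal response element, TGCACNC or TGCGCNC, was found in 5 of the 14 windows, each of another member, and in 25.7% of all windows. The metallothionein windows are printed because they hold it repeatedly, with each match on either strand in capitals. Matches began at -223, -128, -50 and 5 from the start of *Mt2* and at -23, 3 and 21 from that of *Mt1*, whereas *Klf15*, *Ddit4* and *Sgk1* had a single match each:
*Mt2* chr8:94172368-94172667, plus strand: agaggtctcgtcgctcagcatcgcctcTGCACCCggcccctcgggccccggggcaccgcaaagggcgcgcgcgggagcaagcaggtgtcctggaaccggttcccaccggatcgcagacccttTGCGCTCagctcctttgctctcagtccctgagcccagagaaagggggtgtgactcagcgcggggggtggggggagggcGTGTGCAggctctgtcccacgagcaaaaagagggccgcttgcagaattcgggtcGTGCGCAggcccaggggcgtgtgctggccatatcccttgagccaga
*Mt1* chr8:94178839-94179138, plus strand: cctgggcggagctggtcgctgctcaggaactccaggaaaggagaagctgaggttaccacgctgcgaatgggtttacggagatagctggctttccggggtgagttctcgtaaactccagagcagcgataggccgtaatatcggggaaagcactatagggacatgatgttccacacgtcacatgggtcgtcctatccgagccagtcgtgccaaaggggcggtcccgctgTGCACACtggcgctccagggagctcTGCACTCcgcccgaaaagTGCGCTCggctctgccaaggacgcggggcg
Neither window held the half-site AGAACA. Beside 6.31% and 15% of all genes, 0 of 5 genes of the metal response other than metallothioneins were called in either comparison. Among them *Mtf1*, the factor that binds these elements, was named after its values were seen. It was at 14.96, 21.1 and 17.2 CPM in Ctrl replicates 1 to 3, at 16.9 CPM in the library labelled Ctrl replicate 4, and at 20.1 and 15.3 CPM in the LSD1skm-/- libraries.

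Levels can be set between genes per length, as CPM per kilobase of the longest transcript with a consensus coding sequence in GENCODE vM21. *Tsc22d3* was the most abundant member, at 220 ± 52.8 CPM per kilobase in Ctrl (SD, n = 4), and its lowest library lay above the highest library of any other member. *Ddit4*, *Sgk1*, *Mt1* and *Fkbp5* followed at 87.9 ± 46.9, 85.2 ± 11.5, 79.8 ± 24.9 and 67.4 ± 26.9 CPM per kilobase. *Mt2* came next at 43.0 ± 14.8 (same unit), *Cebpd* at 22.7 ± 10.8, *Klf15* at 19.9 ± 7.92, *Nr3c1* at 14.9 ± 3.27 and *Zbtb16* at 14.4 ± 4.15. From *Ddit4* down, the ranges of neighbours in this order overlapped, so that their order was not resolved beyond the spread between libraries.

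The targets covaried across single libraries. The mean log2 CPM of the 9 targets was 7.12 in Ctrl replicate 3, 6.99 in LSD1skm-/- replicate 2 and 6.87 in Ctrl replicate 1. It was 6.52 in LSD1skm-/- replicate 1, 6.32 in the library labelled Ctrl replicate 4 and 6.15 in Ctrl replicate 2. Libraries of both labels thus stood in the upper and in the lower part of the order. Ctrl replicate 3 was above a gene's own mean over the 6 libraries for 9 of the 9 targets, and Ctrl replicate 1 and LSD1skm-/- replicate 2 for 8 each. Ctrl replicate 2 and the library labelled Ctrl replicate 4 were above it for 1 target each, *Sgk1* and *Ddit4* respectively. Over all genes tested, each library was above the mean for between 49.3% and 51.4% of genes.

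**Figure D3:**
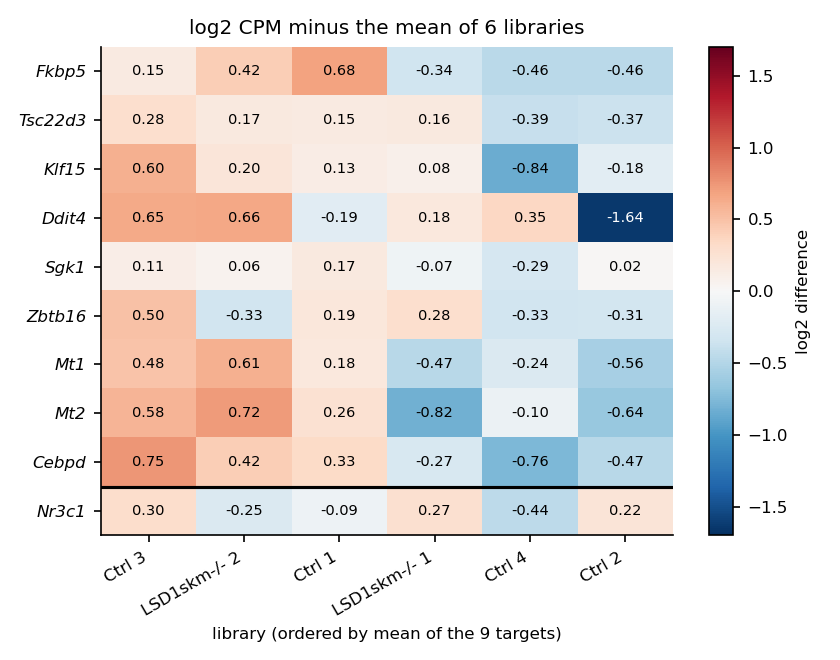
Log2 CPM minus the gene's mean over 6 libraries, for the 9 targets and, under the black line, *Nr3c1* (rows), with libraries (columns) ordered by the mean of the 9 targets. The 3 columns on the left are mostly red and the 2 on the right mostly blue for the targets, and *Nr3c1* does not follow that order.

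Of the 36 pairs of targets, 35 had a positive Pearson correlation of log2 CPM over the 6 libraries, with a median r of 0.637. A target's median r with all other genes tested lay between -0.04 and 0.01. Without the library labelled Ctrl replicate 4 the median over the 36 pairs was 0.698, and after centring on the labelled groups it was 0.680. The values of *Tsc22d3* and *Zbtb16* fell into separate clusters, so that no r is given for the 15 pairs with either gene. Over the 21 remaining pairs the median r was 0.666, and 20 were positive. The exception was *Ddit4* with *Sgk1*, at -0.09.

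*Klf15* and *Cebpd* had the same order of libraries. Their Pearson r was 0.906 (exact two-sided permutation p = 0.00139, Benjamini-Hochberg adjusted p = 0.0417 over 45 pairs) and their Spearman rho was 1 (exact permutation p = 0.00278, adjusted p = 0.125). Without Ctrl replicate 3 and the library labelled Ctrl replicate 4, the libraries farthest from the *Klf15* median, r was 0.875. *Mt1* and *Mt2*, which are neighbours on chromosome 8, had an r of 0.974 (exact permutation p = 0.00694, adjusted p = 0.0781) and a rho of 0.943 (exact permutation p = 0.0167, adjusted p = 0.150), and without Ctrl replicate 2 and LSD1skm-/- replicate 2 r was 0.957. *Mt2* ranked 4 among 11363 genes by its r with *Mt1*. *Sgk1* and *Cebpd* had an r of 0.820 (exact permutation p = 0.0306, adjusted p = 0.275). *Klf15* and *Sgk1* had an r of 0.846 (exact permutation p = 0.0486, adjusted p = 0.320), but r was 0.332 without Ctrl replicate 3 and the library labelled Ctrl replicate 4, so that this relation rested on those libraries. Among all 45 pairs, 3 passed an adjusted p of 0.05 by Pearson's r, of which *Klf15* with *Cebpd* is the pair without separate clusters. By Spearman's rho 0 passed, but even the rho of 1 had an exact permutation p of only 0.00278, adjusted to 0.125. With so few libraries no single pair could pass by rank, so that this count does not tell whether ranks were shared.

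With all 6 libraries, *Nr3c1* itself showed no common direction with its targets. With all 9 its r was positive for 5 and negative for 4, with a median of 0.275, and of -0.31 without the library labelled Ctrl replicate 4. In the 7 pairs without separate clusters its r was positive with 3 targets and negative with 4, from -0.35 with *Mt2* to 0.631 with *Klf15*, and the smallest adjusted p was 0.366 by the exact permutation test. Without the library labelled Ctrl replicate 4 the median r over these 7 pairs was -0.45, against -0.14 with it. There, r was positive with *Klf15* alone (0.09) and negative with the others, from -0.25 with *Ddit4* to -0.73 with *Fkbp5*. These r without that library were not tested. With *Fkbp5* the r was -0.14 with all 6 libraries and -0.73 without that library. The genes most like *Nr3c1* over the 6 libraries were *Esf1* (r = 0.998), *Gcn1* (0.995) and *Kansl1l* (0.994), and 2.47% of all genes had an r over 0.9 with it. Those most like *Fkbp5* were *Rpl4* (0.979), *Fra10ac1* (0.978) and *Xpa* (0.978), with 0.519% of all genes over 0.9. These were picked as the highest of 11363 values each and carry no test.

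Markers of the cell types were read beside this order. From Ctrl replicate 3 and LSD1skm-/- replicate 2 and Ctrl replicate 1 at the upper end, the 12 myofiber markers summed to 238300, 212800 and 223500 CPM. In LSD1skm-/- replicate 1, the library labelled Ctrl replicate 4 and Ctrl replicate 2 they summed to 198700, 202800 and 212500 CPM. The sum was thus higher in the 3 libraries with higher targets, by a margin that is small beside that of the targets. LSD1skm-/- replicate 2 and Ctrl replicate 2 were nearly level in this sum. By gene, 8 of the 12 markers were above their own mean in each of the upper 3 libraries. In LSD1skm-/- replicate 1, the library labelled Ctrl replicate 4 and Ctrl replicate 2 these were 2, 3 and 3. The mean log2 deviations were 0.10, 0.04 and 0.09 in the upper 3 and -0.10, -0.09 and -0.05 in the lower 3, in the same order. The part of the myofiber sum in the covariation was not tested. The 10 adipocyte markers did not share the order, at 713, 587 and 855 CPM in the upper 3 libraries and 594, 889 and 617 CPM in the lower 3. Nor did the 8 macrophage markers, at 46.8, 118 and 99.2 CPM against 71.7, 76.2 and 80.7 CPM. The sums of the slow-twitch, endothelial, fibroblast, Schwann cell and blood markers also overlapped between the upper 3 and the lower 3 libraries.

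A wider list of 42 other glucocorticoid-induced genes was tested in the same fit. It holds regulators of muscle protein breakdown such as *Foxo1*, *Trim63* and *Fbxo32*, clock genes such as *Per1*, and metabolic enzymes such as *Pdk4* and *Glul*. By the thresholds of the study 0 rose and 1 fell, beside 6.31% of all genes called. The 1 that fell was *Mstn*, which encodes the muscle growth inhibitor myostatin. *Mstn* was at 158, 102 and 124 CPM in Ctrl replicates 1 to 3, at 57.2 CPM in the library labelled Ctrl replicate 4, and at 47.5 and 53.2 CPM in the LSD1skm-/- libraries. The LSD1skm-/- libraries lay below every Ctrl library, and the library labelled Ctrl replicate 4 lay near them. Its log2 fold change was -1.13 (SE 0.36, edgeR adjusted p = 0.557), and -1.34 without the library labelled Ctrl replicate 4 (SE 0.19, edgeR adjusted p = 0.00973). Without that library 1 rose and 4 fell at the same thresholds, beside 15% of all genes called. An adjusted p under 0.05 was reached by *Mstn* and by *Gadd45g*, a growth arrest gene chosen here after its value was seen, whose log2 fold change was 0.83 (SE 0.14, edgeR adjusted p = 0.0161). The others that fell were *Pik3r1* (-0.68, edgeR adjusted p = 0.197), *Fbxo31* (-0.41, edgeR adjusted p = 0.117) and *Txnip* (-0.41, edgeR adjusted p = 0.215), likewise named after their values were seen. With all libraries, 6 of 7 slow-twitch fiber markers and 6 of 9 adipocyte markers also fell at the unadjusted thresholds (median log2 fold change -1.52 and -3.28), while 4 of 5 blood markers (median 0.67) and 2 of 8 fibroblast markers (median 0.32) rose. Without that library, 6 of 7 slow-twitch and 6 of 9 adipocyte markers fell (medians -1.54 and -2.97). There, 5 of 5 blood and 5 of 8 fibroblast markers rose (medians 0.84 and 0.43), and 2 of each passed an adjusted p of 0.05. The adipocyte markers were also low in Ctrl replicate 3, where their mean log2 deviation from each gene's own mean over all libraries was -0.97. It was -1.77 and -1.21 in LSD1skm-/- replicates 1 and 2. In Ctrl replicates 1 and 2 it was 1.24 and 1.06, and in the library labelled Ctrl replicate 4 it was 1.66. The part of these cell type markers in the changes named here was not tested. The median log2 fold change of the list of 42 was -0.05 with all libraries and -0.06 without the library labelled Ctrl replicate 4, beside -0.01 and -0.00 for all genes.

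Most of these other induced genes were high in the libraries in which the 9 targets were high. Of the 42, 35 had a positive r with the mean log2 CPM of the 9 targets (83.3%, against 48.7% of all genes), and 9 had an r over 0.8 (21.4%, against 1.63% of all genes). The median r was 0.502 in the list and -0.02 over all genes. Ctrl replicate 3 was the highest library for 16 of the 42 (38.1%, against 18.1% of all genes), and Ctrl replicate 2 the lowest for 17 (40.5%, against 14.2%). The genes at the ends of the range were named after their values were seen. The highest r were those of *Foxo1* (0.963), *Il6ra* (0.962), *Cebpb* (0.939), *Trim63* and *Sesn1* (0.914 each). *Foxo1*, a transcription factor of the fasting response, was at 101.4, 39.6 and 130.2 CPM in Ctrl replicates 1 to 3, at 33.8 CPM in the library labelled Ctrl replicate 4, and at 48.2 and 97.5 CPM in the LSD1skm-/- libraries. *Irs2*, an adaptor of the insulin receptor, ran the other way, with an r of -0.98. It was at 27.2, 40.7 and 22.6 CPM in Ctrl replicates 1 to 3, at 33.6 CPM in the library labelled Ctrl replicate 4, and at 29.8 and 24.4 CPM in the LSD1skm-/- libraries. These correlations carry no test, since the mean is a score over the members.

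**Figure D4:**
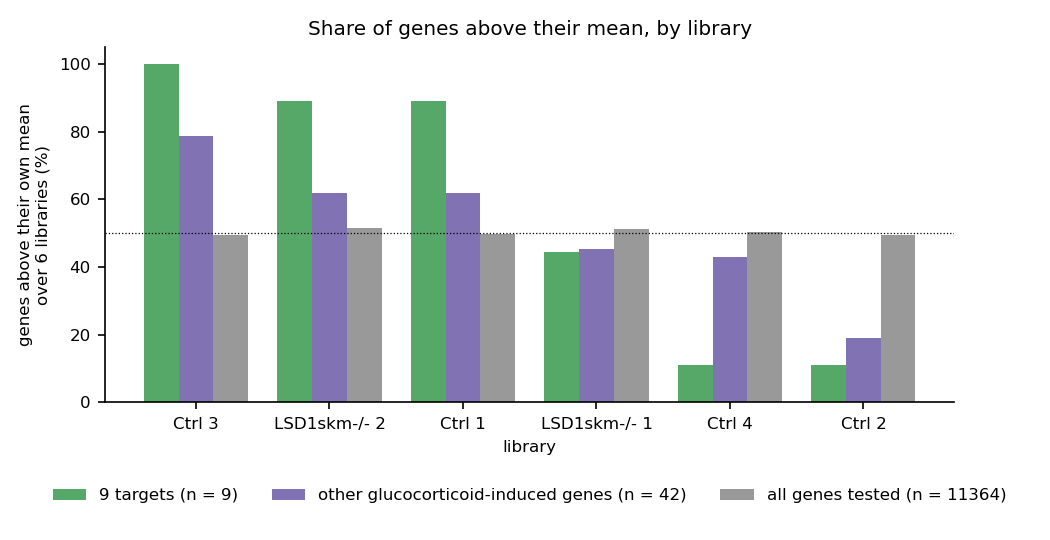
Share of genes above their own mean over 6 libraries (vertical axis, percent), by library, for the 9 targets, the 42 other glucocorticoid-induced genes and all genes tested. The 42 genes run from 78.6% in Ctrl replicate 3 to 19.0% in Ctrl replicate 2, and all genes stay near 50% (dotted line).

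The machinery around the receptor was described from lists. Of all genes tested, 6.31% were called with all libraries and 15% without the library labelled Ctrl replicate 4. Of 14 chaperones and co-chaperones that fold the receptor, 0 were called in either comparison, with a median log2 fold change of -0.03 with all libraries and -0.05 without the library labelled Ctrl replicate 4. Of 20 coregulators, 0 were called with all libraries and 2 fell without that library. These were *Nrip1*, a corepressor of nuclear receptors (log2 fold change -0.95, SE 0.23, edgeR adjusted p = 0.0602), and *Crebbp*, a histone acetyltransferase (-0.39, SE 0.16, edgeR adjusted p = 0.231). *Nrip1* was at 100.5, 60.6 and 93.6 CPM in Ctrl replicates 1 to 3, at 35.1 CPM in the library labelled Ctrl replicate 4, and at 48.7 and 38.9 CPM in the LSD1skm-/- libraries, so that Ctrl replicates 1 to 3 lay above the rest. The 6 tested genes of glucocorticoid handling are tied to making, breaking down, exporting or binding these hormones. Of them, 1 fell with all libraries, *Abcb1a*, which encodes an efflux pump (log2 fold change -0.49, SE 0.20, edgeR adjusted p = 0.557). Without the library labelled Ctrl replicate 4, *Abcb1a* fell (-0.51, SE 0.21, edgeR adjusted p = 0.246) and its paralog *Abcb1b*, named after its value was seen, rose (0.60, SE 0.15, edgeR adjusted p = 0.0703). *Hsd11b1*, which regenerates active glucocorticoid inside cells and was likewise named after its values were seen, was at 9.26, 7.64 and 8.03 CPM in Ctrl replicates 1 to 3, at 11.8 CPM in the library labelled Ctrl replicate 4, and at 7.81 and 9.76 CPM in the LSD1skm-/- libraries, and its log2 fold change was -0.07 (SE 0.20, edgeR adjusted p = 0.928) and 0.09 without the library labelled Ctrl replicate 4 (SE 0.15, edgeR adjusted p = 0.801).

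Lists of pathways that share inputs with the receptor gave the following counts, beside the same 6.31% and 15% of all genes. Of 18 tested clock genes, which include the *Per* genes named as glucocorticoid-induced above, 0 were called with all libraries. Without the library labelled Ctrl replicate 4, *Rora* fell (log2 fold change -0.52, edgeR adjusted p = 0.168) and *Ciart* rose (0.42, edgeR adjusted p = 0.249) at the unadjusted thresholds. Of 10 immediate early genes, 3 fell and 0 rose with all libraries, *Btg2* (-0.61), *Jun* (-0.60) and *Atf3* (-1.49), each with an edgeR adjusted p of 0.557. Without that library they were at -0.62, -0.66 and -1.53 (edgeR adjusted p = 0.122, 0.103 and 0.243), and 4 fell in all. The fourth was *Ier3*, named after its value was seen. Of 8 tested genes of amino acid and ER stress, 1 fell with all libraries and 2 fell without the library labelled Ctrl replicate 4, *Chac1* in both and, named after its value was seen, *Vldlr* in the latter (-0.45). *Chac1* encodes an enzyme that degrades glutathione and was at 79.2, 122 and 110.4 CPM in Ctrl replicates 1 to 3, at 18.6 CPM in the library labelled Ctrl replicate 4, and at 30.2 and 23.6 CPM in the LSD1skm-/- libraries. Its log2 fold change was -1.62 (SE 0.65, edgeR adjusted p = 0.557), and -1.95 without the library labelled Ctrl replicate 4 (SE 0.21, edgeR adjusted p = 0.00428). Of 12 inflammatory genes that glucocorticoids repress, 2 had enough counts to be tested and 0 were called in either comparison.

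**Figure D5:**
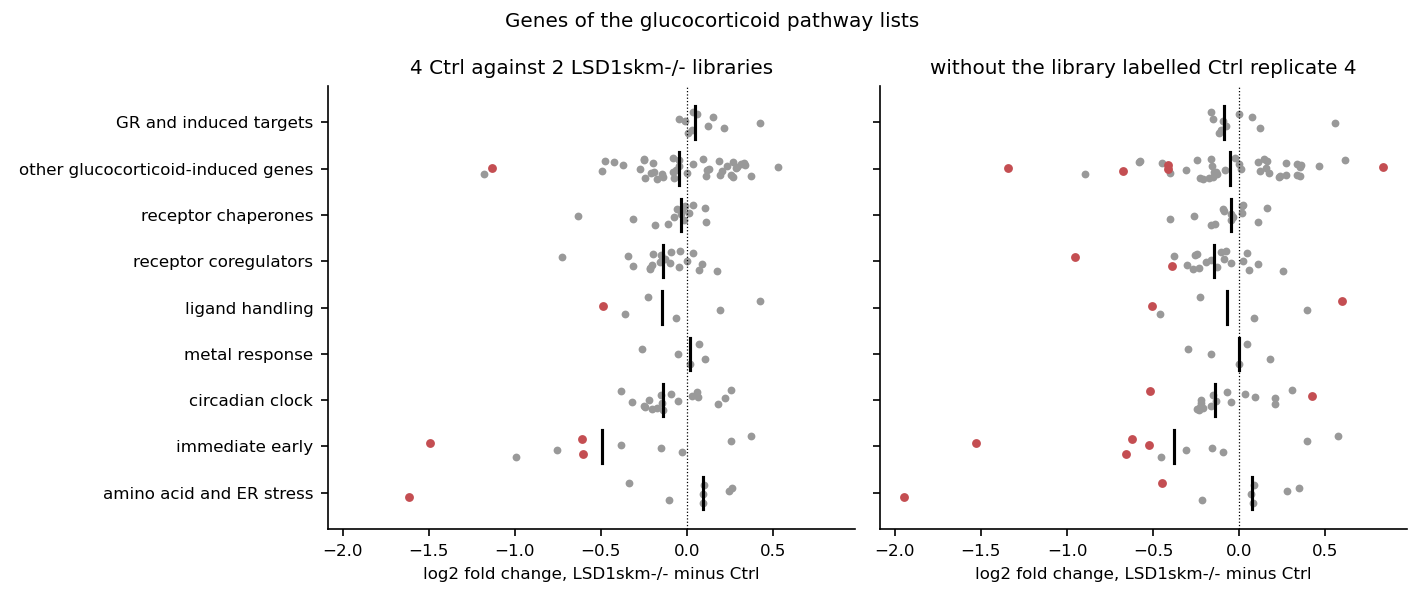
Log2 fold change of the tested genes of each list drawn (rows), LSD1skm-/- minus Ctrl (horizontal axis). The left panel has all 6 libraries and the right panel leaves out the library labelled Ctrl replicate 4. Rows are the members, the other induced genes, and the lists of chaperones, coregulators, ligand handling, metal response, clock, immediate early and stress genes. The glucocorticoid-repressed inflammatory genes and the cell type markers are not drawn. Red points passed the unadjusted thresholds of the study, grey points did not, and black bars are medians. The row of the 10 members has no red point in either panel.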

How the data were processed

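RNA-seq libraries of 6 muscles were analysed from the table of gene counts that the authors deposited, whole numbers of reads per gene symbol that are not normalized. Libraries were made with the Illumina Stranded mRNA Prep kit from polyA RNA. Per the methods, single-end reads of 50 bases were mapped to mm10, uniquely aligned reads were kept, and htseq-count and HOMER were used. The aligner and the strand setting of the counting are not given in the sources used here. The submitters' processing notes name bcl2fastq 2.20.0.422 and mm10.

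Tests were run in edgeR 4.0.16 under R 4.3.3, on genes whose mean exceeded 50 counts in the libraries compared. The model held genotype alone, scaling was by TMM, the quasi-likelihood F test gave p-values, and these were adjusted over all genes tested by Benjamini and Hochberg's method. The SE is the log2 fold change divided by the square root of F. The scripts were tested on simulated data. Correlations used log2 CPM with a prior count of 2 and exact two-sided permutation tests. A gene's values were taken as separate clusters when their largest gap exceeded 0.5 of their range with at least 2 libraries on each side. Gene models came from GENCODE vM21 on GRCm38 and start site windows from RefSeq.

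The named genes are the 10 members, *Kdm1a*, up to 4 called genes of each list in order of p, taken from the comparison with all libraries or, where it gave none, from that without the library labelled Ctrl replicate 4, and the 3 genes most like *Nr3c1* and *Fkbp5*. Others are marked as chosen after their values were seen. The members and lists were chosen with earlier results of these data known. Alternatives were DESeq2 1.42.0, other scalings and filters, an adjusted threshold, omission of each library and a replicate block. Counting error was at most 5.21% for a member, and the number of LSD1skm-/- libraries limits the precision.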

Additional observations from a re-analysis of the deposited data

Results flagged for a closer look

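The *Kdm1a* level of the library labelled Ctrl replicate 4, at 3.66 CPM against 21.96 to 28.1 CPM in Ctrl replicates 1 to 3, stood apart from its group. In log2 CPM, its gap to the nearest Ctrl library was 0.879 of the range of the 4 Ctrl libraries. That share is above Dixon's 95% critical value for 4 samples. The rule was not applied to the CPM values given above, on which the gap is a smaller share of the range. The same rule was applied to 29 values, the log2 CPM of the 10 members and of *Kdm1a* and the mean log2 CPM of 18 lists, and chance passes about 1 in 20. It also marked the means of the endothelial markers (gap 0.909) and of the fibroblast markers (gap 0.939), where the library that stood apart was again the library labelled Ctrl replicate 4. On the first principal component of all genes tested, with 50% of the variance, that library was at 22.1, beside LSD1skm-/- libraries at 22.2 and 25.4 and with Ctrl replicates 1 to 3 between -25.2 and -21.4. None of the 10 members was marked. The members' levels in that library were below the mean of the other Ctrl libraries for each member except *Ddit4*, from 0.479 times that mean for *Klf15* to 0.835 times for *Mt2*, and 1.38 times for *Ddit4*.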

How the results depend on the processing

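The number of genes called between the groups, 717, became 1909 with no filter beyond 1 count, 0 at an adjusted p under 0.05, and between 339 and 1681 when each library was left out in turn, the lowest without LSD1skm-/- replicate 2 and the highest without the library labelled Ctrl replicate 4. The following settings with that library left out were chosen after seeing the data. They gave 1633 called genes with DESeq2, 1678 with DESeq2 size factors, 1807 with library size scaling, 1688 with upper-quartile scaling and 590 at an adjusted p under 0.05. The number of members called stayed at 0 under 18 alternatives and was 1 under the replicate block, described last.

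The signs of the members' small log2 fold changes were not stable. When each library was left out in turn they ranged from -0.28 to 0.24 for *Nr3c1*, -0.40 to 0.36 for *Fkbp5*, -0.36 to 0.34 for *Cebpd*, -0.0777 to 0.38 for *Klf15*, -0.92 to 0.62 for *Mt2*, -0.49 to 0.58 for *Mt1*, -0.10 to 0.0491 for *Sgk1* and -0.39 to 0.22 for *Zbtb16*. They did not turn for *Tsc22d3* (0.12 to 0.34) and *Ddit4* (0.12 to 0.72). With all 6 libraries, *Nr3c1* turned to -0.0024 with DESeq2 and with its size factors and to -0.00999 with no filter, and library size scaling turned *Sgk1* to 0.0302 and *Zbtb16* to 0.0064. Once the library labelled Ctrl replicate 4 had been dropped, DESeq2 and its size factors each gave -0.13 for *Nr3c1*, -0.12 and -0.11 for *Fkbp5*, -0.17 for *Cebpd* and, in that order, -0.0868 and -0.0869 for *Klf15* and -0.0151 and -0.0120 for *Mt2*. Library size scaling gave -0.0461, -0.0362, -0.0940 and -0.0052 for *Nr3c1*, *Fkbp5*, *Cebpd* and *Klf15*, and upper-quartile scaling gave -0.12, -0.10, -0.16 and -0.0748. None of these values passed a threshold, and the cause of the turns was not tested. The median r among the targets ranged from 0.557 without Ctrl replicate 3 to 0.742 without LSD1skm-/- replicate 1, and the r of *Fkbp5* and *Nr3c1* from -0.73 to 0.0303.

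The labels number the replicates of both groups but do not say that a number marks a shared origin. The deviations of same-numbered libraries from their group means correlated at -0.233 and -0.0334 for the 2 pairs. A fit with the replicate number as a block called 1668 genes, and 1651 once the library labelled Ctrl replicate 4 had been dropped. In both it called 1 member, *Ddit4*, with a log2 fold change of 1.33 (edgeR adjusted p = 0.02) and 1.34 (edgeR adjusted p = 0.00447). Both values rest on replicates 1 and 2 of each group, since the other Ctrl libraries have no LSD1skm-/- library of their number. The fit without the library labelled Ctrl replicate 4 is thus no separate check. With a block for each number, little is left in these libraries to estimate the spread. Under this replicate block *Nr3c1* was at -0.0574, *Fkbp5* at -0.0715 and *Zbtb16* at 0.0349, and without that library they were at -0.0511, -0.0652 and 0.0412.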
